A study of Mus musculus with 12 samples.

Results

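Many FOS and JUN family transcription factors and their close relatives are among the first genes that a T cell switches on after a signal through its antigen receptor. Here 9 genes of these groups were followed through the last steps of CD4 T cell development in the thymus. They are Fos, Fosb and Fosl2 of the FOS family, Jun, Junb and Jund of the JUN family, Atf3 and Batf, which share the same kind of DNA-binding domain, and Ier2, another immediate early gene. A probe set was taken for a gene if the annotation of the Mouse Genome 430 2.0 array gives it that symbol and no other. This gave 12 probe sets for the 9 genes, out of 45037 probe sets in all and 18193 genes with a probe set of their own. Fosl2, Jun and Jund have a pair of probe sets each and were read by the one of higher mean, with the other given beside it.

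The RNA came from CD4 SP (CD4 single positive) thymocytes of C57BL/6 mice of 6 to 8 weeks, sorted with no culture from thymi that had been pooled over animals. Every subset was CD4+CD8-CD25-NK1.1-, after anti-CD8 antibody and complement had been used to kill CD8+ cells. Within this gate SP1 cells were Qa-2-6C10+CD69+, SP2 cells Qa-2-6C10-CD69+, SP3 cells Qa-2-6C10-CD69- and SP4 cells Qa-2+6C10-CD69-, in the order of maturation. Each subset was hybridised to 3 arrays, 12 in all, labelled as biological replicates 1 to 3. A pooled preparation is 1 replicate, so the spread between replicates is that between pools and not between mice. The CD25 and NK1.1 gates were meant to leave out regulatory T cells and NKT cells, returning ones included. No marker of the sort parted conventional mature T cells that had returned to the thymus from the Qa-2+ cells of SP4. The study holds that a small share of such cells may be present in SP4.

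AP-1 is a dimer of basic leucine zipper proteins. FOS proteins bind DNA only when paired with a JUN protein, whereas JUN proteins can also pair among themselves. Many genes of these families, though not all, respond within minutes to kinase signals and have short-lived transcripts. In T cells AP-1 acts together with NFAT and, for BATF dimers, with IRF4 at genes of activation and cytokine production. CD69, by which the sort parts SP1 and SP2 from SP3 and SP4, is itself a surface protein of recently stimulated cells. In the thymus AP-1 activity is known from positive selection, when a double positive cell receives the signal that makes it a single positive cell.

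Stretches of promoter are shown for 5 of the genes, since cyclic AMP response elements and AP-1 sites near the start are known regulatory sites of genes such as Fos, Jun and Atf3. The sequences are RefSeq promoters of GRCm38.p6, which held 8 of the 9 genes and not Ier2. Each is the 110 bases just before the start of transcription, and the capitals mark TGACG, or CGTCA where it lies on the other strand, and in Jun TGACATCA.
Fos, chr12:85473780-85473889, plus strand: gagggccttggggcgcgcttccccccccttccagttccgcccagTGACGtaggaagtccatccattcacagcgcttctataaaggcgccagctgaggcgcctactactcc
Jun, chr4:95052223-95052332, minus strand: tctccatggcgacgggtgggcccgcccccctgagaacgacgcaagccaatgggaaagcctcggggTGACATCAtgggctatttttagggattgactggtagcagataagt
Junb, chr8:84978749-84978858, minus strand: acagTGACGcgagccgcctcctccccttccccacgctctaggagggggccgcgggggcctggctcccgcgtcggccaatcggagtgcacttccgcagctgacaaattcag
Atf3, chr1:191183334-191183443, minus strand: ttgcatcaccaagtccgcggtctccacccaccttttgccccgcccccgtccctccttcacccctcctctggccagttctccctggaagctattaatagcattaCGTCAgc
Batf, chr12:85686610-85686719, plus strand: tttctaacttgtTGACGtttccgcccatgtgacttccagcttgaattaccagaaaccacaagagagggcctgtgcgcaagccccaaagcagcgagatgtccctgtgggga

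In the 250 bases before the start, TGACG on either strand occurred in 5 of the 8 promoters, those of Fos, Fosb, Junb, Atf3 and Batf. Over all 32851 RefSeq promoter windows of that length, 17.8% held it. The Fos promoter held it at 66 to 62 and again at 129 to 125 bases before the start. TGACATCA was found in Jun alone, at 45 to 38 bases before the start, and in 2.93% of all windows. The full element TGACGTCA and the AP-1 site TGANTCA were in 0 of the 8 windows, against 1.55% and 6.75% of all windows, and a serum response element match was in 0 of 8 against 1.47%. These are matches of letters in 1 window and not measured binding. Bases further upstream were not searched, so a count of 0 does not show that a promoter lacks an element.

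Before any difference between subsets is read, the replicates need a description. The 4 arrays of replicate 3, one of each subset, stood apart from the 8 others along the first principal component, which held 56.8% of the variance between arrays, while the subsets were ordered along the second, with 13.2%. The medians of the arrays were alike, between 30.5 and 32.8. Arrays of the same replicate number deviated together from their subset means, so every test was run without and with the replicate number as a block. On replicate 3, markers of cortical double positive thymocytes were lower (13 of 16 genes lower and 1 higher), and so were 6 of 8 B cell genes. Over all probe sets, 17.7% were lower and 20.3% higher on replicate 3 (limma, adjusted p under 0.05). What else parted replicate 3 from the other replicates cannot be told apart from the replicate number.

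In the FOS family, the SP2 level was under the SP1 level in every replicate for Fos and in replicates 1 and 2 for Fosb, while Fosl2 differed mainly by replicate. Fos, the founding member, measured 3486, 3214 and 2589 in SP1, 2159, 2055 and 1926 in SP2, 3604, 2062 and 2362 in SP3, and 2975, 1925 and 2404 in SP4, in the order of replicates 1, 2 and 3. All 3 SP1 arrays were above all 3 SP2 arrays, while SP3 and SP4 overlapped both. The share of all probe sets that part subsets in this way was not counted. Such separations are therefore a description, here and for the genes below. The mean intensity was 3096 ± 460 in SP1 and 2047 ± 117 in SP2 (SD, n = 3 arrays each).

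Fosb, a close relative of Fos, measured 114, 128 and 54.9 in SP1, 38.7, 29.5 and 61.0 in SP2, 94.8, 46.4 and 93.2 in SP3, and 76.7, 44.6 and 103 in SP4. In replicates 1 and 2 the SP1 array was the highest and the SP2 array the lowest, whereas in replicate 3 the SP1 array was the lowest of the 4 subsets.

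Fosl2 encodes FRA2, a FOS relative that lacks a strong activation domain of its own. On the arrays of replicate 3 it measured 898 in SP1 and 723 in SP2, then 636 in SP3 and 784 in SP4. On the other 8 arrays it lay between 25.0 and 84.5, so that no array of replicates 1 and 2 came near those of replicate 3. The lower end of this range is under the array medians. The other probe set of Fosl2, 1422931_at, was also higher on replicate 3, at 109 to 251, against 27.1 to 41.1 on the other arrays. Its probe sets did not order the subsets alike, since SP4 was the highest by log2 mean for 1437247_at and the lowest for 1422931_at.

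**Figure D1:**
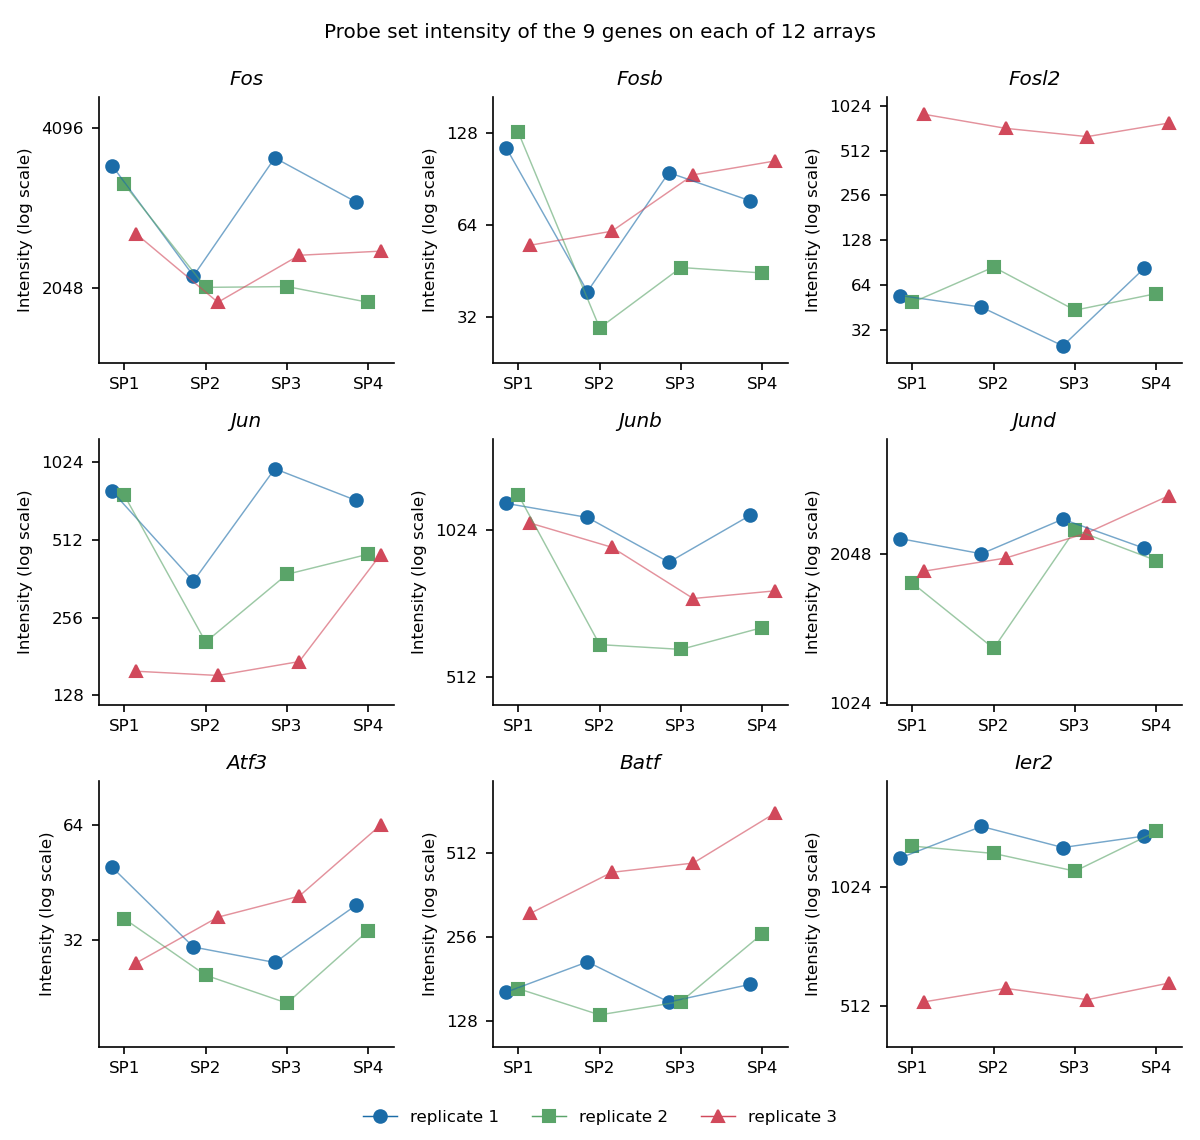
Intensity of each gene (log axis, its own range in each panel) in the subsets SP1 to SP4. Each point is 1 array, and lines join the arrays of 1 replicate number. Fosl2 and Batf sit higher and Ier2 lower on all 4 arrays of replicate 3, while Fos and Jun drop from SP1 to SP2 in each replicate.

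Of the JUN family, Jun encodes c-JUN, the partner with the strongest activation domain. Jun measured 792, 764 and 158 in SP1, 354, 206 and 152 in SP2, 968, 377 and 173 in SP3, and 729, 451 and 449 in SP4, by probe set 1417409_at. SP2 was the lowest of the 4 subsets in each replicate, but in replicate 3 the SP1 and SP3 arrays were only a little above it. By the other probe set, 1448694_at, Jun measured 87.6, 90.7 and 55.7 in SP1, 51.5, 35.9 and 39.98 in SP2, 98.95, 58.7 and 69.9 in SP3, and 89.4, 63.7 and 105 in SP4. Here the 3 SP2 arrays were below every array of the other subsets.

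Junb, which can restrain c-JUN and is itself abundant in T cells, measured 1163, 1211 and 1059 in SP1, 1088, 596 and 945 in SP2, 881, 583 and 742 in SP3, and 1099, 646 and 769 in SP4. SP1 was the highest and SP3 the lowest subset in each of the 3 replicates, and all 3 SP1 arrays were above all SP3 arrays. The spread within SP1 was small, at 1145 ± 77.7, and that of SP2 was larger, at 877 ± 253 (SD, n = 3 arrays each).

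Jund, the member known for a steady level in resting cells, measured 2205, 1793 and 1895 in SP1, 2054, 1323 and 2014 in SP2, 2413, 2297 and 2264 in SP3, and 2108, 1991 and 2690 in SP4. All 3 SP3 arrays were above all arrays of SP1 and of SP2, and SP4 overlapped the rest. The other Jund probe set, 1440265_at, stayed between 12.4 and 21.5 on every array, under the array medians.

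Atf3, a stress response factor that often represses, measured 49.6, 36.4 and 27.9 in SP1, 30.7, 25.9 and 36.7 in SP2, 28.0, 21.9 and 41.7 in SP3, and 39.5, 33.9 and 63.9 in SP4. In replicates 1 and 2 the SP1 array was the highest and the SP3 array the lowest, and in replicate 3 SP1 was the lowest and SP4 the highest. These levels are near the array medians of 30.5 to 32.8, and 51.9% of all probe sets had a lower mean.

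Batf, which has no activation domain and pairs with JUN proteins beside IRF4, was the other gene with a high replicate 3. It measured 163, 167 and 311 in SP1, 209, 135 and 435 in SP2, 149.98, 150.5 and 470 in SP3, and 173, 263 and 707 in SP4. The SP4 array was above the SP1 array in each of the 3 replicates, by little in replicate 1 and by more than the whole SP1 level in replicate 3.

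Ier2, a nuclear protein whose gene responds as fast as Fos, went the other way. On replicate 3 it measured 526 in SP1 and 568 in SP2, then 532 in SP3 and 586 in SP4, and on the other 8 arrays it lay between 1125 and 1461. Within a replicate its 4 subsets were close together.

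For Fosl2, Jun by 1417409_at, Batf and Ier2 the difference between replicate 3 and the other replicates was larger than any difference between subsets, and for Fos, Fosb, Junb, Jund and Atf3 it was smaller than the largest of these. Against replicates 1 and 2, with the subset in the model, replicate 3 was called (limma, adjusted p under 0.05) for 37.9% of all probe sets, 20.3% higher and 17.7% lower, so 4 calls among 9 genes are near that background. Fosl2 was higher by a log2 difference of 3.49 (standard error, SE, of 0.16, adjusted p = 1.8e-08), 11.2-fold, and by 1.77 (adjusted p = 6.89e-07) with its other probe set. Only 0.00666% of all probe sets differed by more than its 3.49 in either direction. Batf was higher by 1.34 (SE 0.15, adjusted p = 2.11e-05), and Ier2 lower, with a difference of -1.21 (SE 0.09, adjusted p = 4.85e-07).

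Jun was also lower on replicate 3 by probe set 1417409_at, with a difference of -1.25 (SE 0.25, adjusted p = 0.00153). The other Jun probe set gave -0.08 (SE 0.13, adjusted p = 0.658), so the lower Jun level of replicate 3 rests on 1 of its probe sets. These 4 calls held with any 1 of the 12 arrays left out, and the largest adjusted p among them was 0.0141, for Jun. Fos, Fosb, Junb, Jund and Atf3 were not called, with differences between -0.17 and 0.23. Without the SP1 array of replicate 3, Fosb (0.56, adjusted p = 0.00988) and Atf3 (0.45, adjusted p = 0.00208) were called higher. All 4 arrays of replicate 3 lay above the 8 others for Fosl2 and Batf, as for 10.9% of all probe sets, and below them for Ier2, as for 10.4%. Between replicates 2 and 1, 0 of the 9 genes were called by limma (0.18% of all probe sets), and 7 of the 9 were lower on replicate 2.

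**Figure D2:**
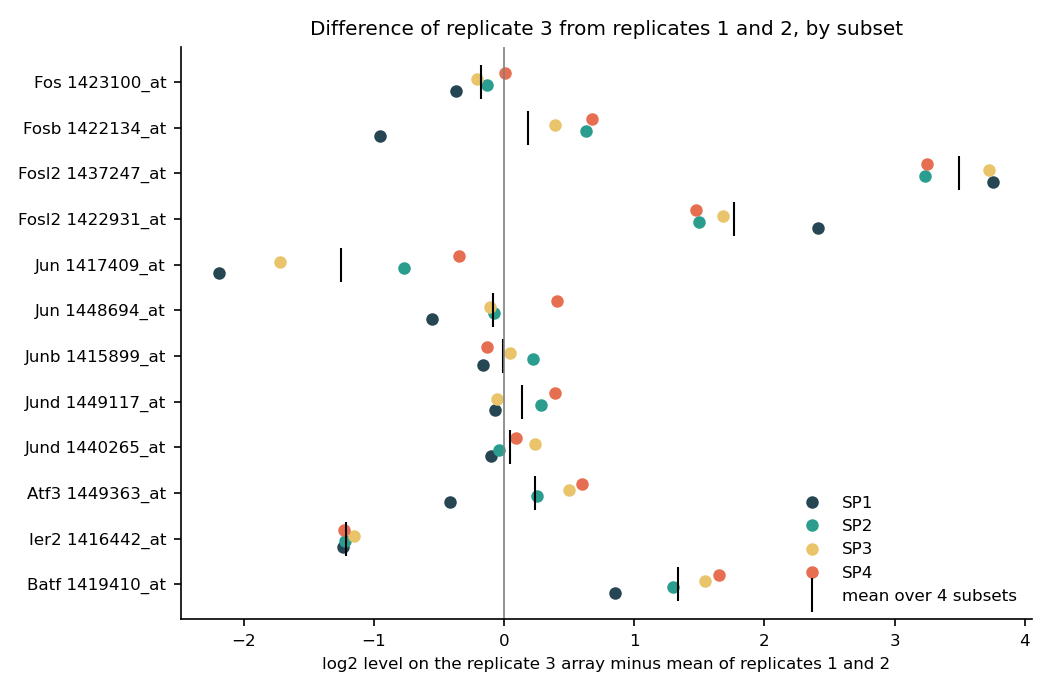
Log2 level on the replicate 3 array minus the mean of replicates 1 and 2 of the same subset, for all 12 probe sets. Dots are the 4 subsets and the bar is their mean. The dots of Ier2 lie together near -1.21 and those of Fosl2 1437247_at between 3.23 and 3.76, while those of Jun 1417409_at spread from -2.19 in SP1 to -0.34 in SP4.

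The replicate difference was even across subsets for some genes and not for others. For Ier2 it lay between -1.16 and -1.23 in the 4 subsets. For Batf it was 0.85 in SP1 and 1.29 in SP2, then 1.55 in SP3 and 1.65 in SP4. For Jun by 1417409_at it was -2.19 in SP1 and -0.77 in SP2, then -1.72 in SP3 and -0.34 in SP4, so the SP4 array of replicate 3 was close to its partners and the SP1 array was not. With 1 array in each cell of this layout, no test of the unevenness was made.

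Between subsets, none of the 9 genes passed the test in any of the 6 pairwise comparisons, in the comparison of CD69- with CD69+ subsets, or in the F test over the 4 subsets, without or with the block (limma, adjusted p under 0.05). Many other genes did pass in the comparisons with SP4. In SP2 vs SP1 the share of all probe sets called was 0% without the block and 0.00888% with it. It was 0.0111% and 0.329% in SP3 vs SP1, and 0% and 0.22% in SP3 vs SP2. The same shares were 1.08% and 5.16% in SP4 vs SP1, 0.557% and 2.65% in SP4 vs SP2, 0.16% and 1.16% in SP4 vs SP3, 0.588% and 3.69% in CD69- vs CD69+, and 0.582% and 3.7% in the F test. At these shares under 1 call is the background for 9 genes, so the count of 0 does not set them apart from other genes.

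At an unadjusted p under 0.05, SP2 vs SP1 had 2 of the 9 genes without the block (Fos and Fosb, where 2.75% of all probe sets passed) and 4 with it (8.12%). SP3 vs SP1 had 1 (Junb, 3%) and 2 with the block (8.44%), and SP3 vs SP2 had 0 (3.02%) and 5 with the block (8.67%). There were 0 without the block in SP4 vs SP1 (7.81%), SP4 vs SP2 (6.41%) and SP4 vs SP3 (4.76%), and 3 in each with it, where 16.7%, 13.7% and 11% of all probe sets passed. In CD69- vs CD69+ there was 1 (Jund, 6.45%) and 2 with the block (14.4%). These counts are given as a description. The smallest adjusted p was 0.0933, for Jun in SP4 vs SP2 with the block.

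The step from SP1 to SP2 had the Fos, Jun and Junb levels lower in each of the 3 replicates, as 13% of all probe sets were. The log2 fold change of Fos was -0.58 (SE 0.22, unadjusted p = 0.0216), with a 95% interval of -0.92 to -0.25 and an adjusted p of 0.291 in the limma fit with the block. Jun gave -0.997 by 1417409_at (SE 0.65, interval with the block -1.71 to -0.28, adjusted p = 0.448 with limma) and -0.67 by 1448694_at (SE 0.22, interval -1.06 to -0.29). Fosb gave -0.93 (SE 0.34, interval -1.57 to -0.30) but was lower in 2 of 3 replicates. Junb gave -0.42 (SE 0.26, interval -0.78 to -0.06). Over the 9 genes the median log2 fold change was -0.18, beside 0.01 over all genes.

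From SP2 to SP3, Fos, Fosb, Jun and Jund were higher in each of the 3 replicates, as 11.9% of all probe sets were. The log2 fold changes were 0.34 for Fos (interval with the block 0.01 to 0.68), 0.66 for Fosb (0.02 to 1.297), 0.80 for Jun (0.08 to 1.52) and 0.40 for Jund (0.08 to 0.72). Fosl2, Junb and Ier2 were lower in each replicate, as 16.5% of all probe sets were, with -0.51, -0.23 and -0.14. None of these passed the test, the smallest adjusted p of these probe sets with the block being 0.443 for Jund (limma). By 1448694_at Jun gave 0.64 (interval 0.25 to 1.02, adjusted p = 0.229 with limma and the block), again higher in each replicate. By their other probe sets Fosl2 gave -0.13 and Jund 0.10.

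SP2 therefore had the lowest mean log2 level for 4 of the 9 genes, Fos, Fosb, Jun and Jund, where 20.2% of all probe sets were lowest in SP2. Fosl2, Junb, Atf3 and Ier2 were lowest in SP3 (19.9% of probe sets) and Batf in SP1. The highest mean was in SP4 for Fosl2, Jun, Atf3, Ier2 and Batf (25% of probe sets), in SP1 for Fos, Fosb and Junb (24.8%), and in SP3 for Jund. Neighbours in these orders were not told apart by any test.

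**Figure D3:**
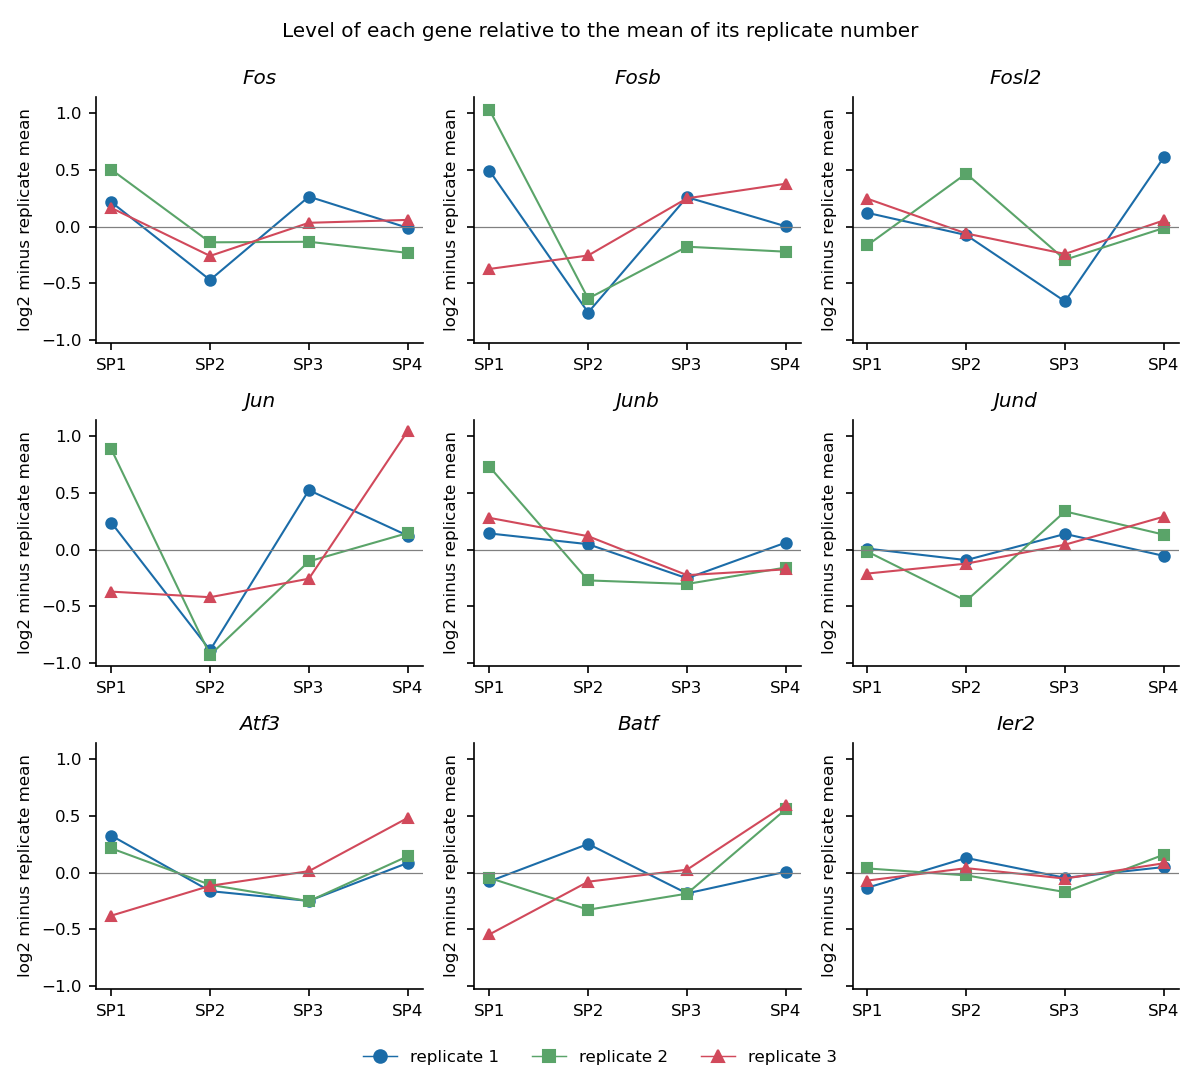
Log2 level of each gene minus the mean of the 4 arrays of the same replicate number, on 1 scale for all panels. Lines join the arrays of replicates 1, 2 and 3. Jun spans the widest range and Ier2 the narrowest, and for Junb the 3 lines all run from their highest point in SP1 to their lowest in SP3.

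Markers of cortical double positive thymocytes, cells that the gate leaves out, were not even over the subsets. Over 16 of the 18 listed genes the summed intensity was 11088 to 17124 in SP1 and 10073 to 12140 in SP2. It was 11592 to 23553 in SP3 and 8263 to 11439 in SP4. Bright genes weigh most in such a sum. The median log2 fold change over the 16 was -1.12 in SP2 vs SP1, 1.69 in SP3 vs SP2 and -1.24 in SP4 vs SP3. Over all genes these medians were 0.01, 0.002 and -0.02. In SP3 vs SP2, 8 of the 16 had an unadjusted p under 0.05 without the block (limma), as 3.02% of all probe sets did. Cd8a, the CD8 alpha chain, measured 765, 1083 and 55.5 in SP1, 272, 82.9 and 34.7 in SP2, 1838, 893 and 81.5 in SP3, and 358, 247 and 16.3 in SP4. It was lowest in SP2 in replicates 1 and 2 and in SP4 in replicate 3. On the array with the highest Cd8a, that of SP3 replicate 1, Jun measured 968 by 1417409_at and 98.95 by 1448694_at. On the array with the lowest Cd8a, that of SP4 replicate 3, it measured 449 and 105. These arrays were picked by their Cd8a, and a relation of Jun to Cd8a was not tested. In SP3 vs SP2, 2 of the 16 markers passed with the block (0.22% of all probe sets did), Cd8a (log2 fold change 2.28, adjusted p = 0.0468 with limma) and Cd8b1 (2.44, adjusted p = 0.0347), and their part in the Fos and Jun levels was not tested. In bulk RNA of this kind, fewer cells that express a gene and less RNA of it per cell cannot be told apart.

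Of the differences between SP4 and another subset, that of Jun against SP2 was the largest among the 9 genes. Jun was higher in SP4 than in SP2 in each of the 3 replicates (13.1% of all probe sets were), with a log2 difference of 1.18 by 1417409_at (SE 0.65, interval with the block 0.47 to 1.90). By 1448694_at it was 0.79 (SE 0.22, adjusted p = 0.266), and here the fit with the block passed the test (interval 0.41 to 1.18, adjusted p = 0.0317 with limma). It is the one call among the 12 probe sets in any comparison of subsets, where 2.65% of all probe sets were called in this one. The call ended on leaving out SP1 replicate 1 (adjusted p = 0.0552), SP2 replicate 1 (0.103), SP2 replicate 2 (0.0911), SP2 replicate 3 (0.0998), SP3 replicate 3 (0.0548) or SP4 replicate 3 (0.177, with a log2 fold change of 0.58).

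Batf was higher in SP4 than in SP1 in each of the 3 replicates (17.4% of all probe sets were), with a log2 difference of 0.61 (SE 0.57, interval with the block 0.17 to 1.05, adjusted p = 0.117 with limma). Against SP3 it gave 0.50 and was again higher in 3 of 3 (15.5% of all probe sets were). By 1437247_at Fosl2 was also higher in SP4 than in SP3 in each replicate, with 0.62 (interval with the block 0.17 to 1.06, adjusted p = 0.256 with limma), and by 1422931_at the difference was -0.06. Fosb and Jund were higher in SP4 than in SP2 in each replicate, with 0.60 (interval -0.04 to 1.24) and 0.35 (interval 0.03 to 0.67). Atf3 was higher in SP4 than in SP3 and SP2 in each replicate, with 0.40 (interval 0.03 to 0.77) and 0.37 (interval -0.01 to 0.74). Fos and Junb were lower in SP4 than in SP1 in each replicate (21.6% of all probe sets were), with -0.36 (interval -0.69 to -0.02) and -0.47 (interval -0.83 to -0.12). For Ier2 the SP4 vs SP1 difference was 0.15 with an interval of -0.09 to 0.40.

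Markers of other cells also differed between SP4 and SP1, where 1.08% of all probe sets were called and 5.16% with the block, and their part in the levels of the 9 genes was not tested. The summed intensity of 11 NKT and innate-like T cell genes was 2212 to 2691 in SP4 and 250 to 742 on the other 9 arrays. In SP4 vs SP1, 5 of these 11 were called higher, and 9 with the block. Activated or memory T cell genes, which cells returning to the thymus would carry, summed to 6299 to 10385 in SP4 and 2944 to 7668 on the other arrays, with 2 of 12 called higher and 5 with the block. In replicate 1 their sum was lower in SP4 (6299) than in SP1 (6946) and SP3 (6999). The 5 called with the block, Itgae, Ahnak, S100a6, S100a4 and Cd44, were each higher in SP4 in that replicate. Bright genes weigh most in a sum, and Crip1, named after its values were seen, went from 2605 in SP1 to 1594 in SP4 there.

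That of 13 myeloid and dendritic cell genes was 1465 to 2474 in SP4 and 585 to 1859 elsewhere, with 0 called without the block (3 at an unadjusted p under 0.05) and 2 higher with it, and in replicate 1 it was lower in SP4 (1465) than in SP1 (1823). For 7 genes of regulatory T cells the sums overlapped, at 2590 to 4279 in SP4 and 1803 to 4716 elsewhere. Of these 7, Foxp3, the factor that defines the lineage, was called higher (1.48, adjusted p = 0.0361 with limma), and Ctla4 (1.21) and Ikzf4 (0.63) with the block alone. Array intensities have a background, so no marker of these lists is at 0, and a low one only sits near it.

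**Figure D4:**
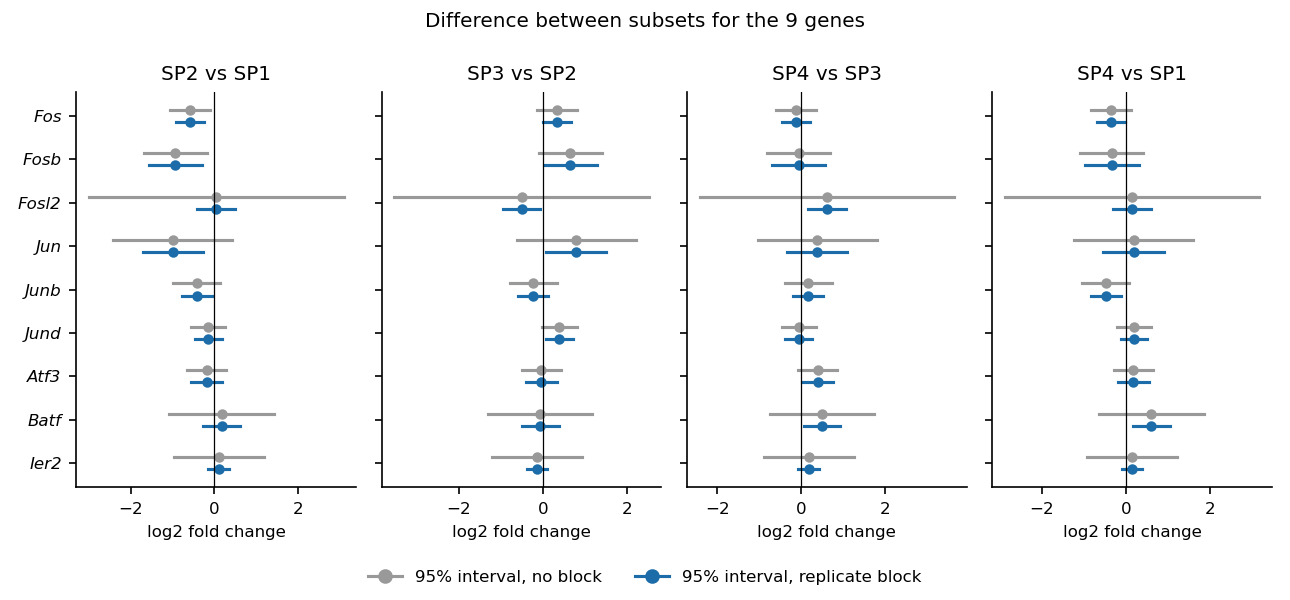
Log2 fold change of each gene in 4 of the comparisons, with 95% intervals from the fit without the block (grey) and with it (blue). The intervals of Fosl2, Ier2 and Batf shrink most with the block. In SP2 vs SP1 the blue intervals of Fos, Fosb, Jun and Junb lie below 0, and none of them passed the test after adjustment over all probe sets.

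CD69, the marker of recent stimulation used in the sort, groups SP3 and SP4 against SP1 and SP2. The sort used the surface protein, and the RNA of Cd69 was not called in CD69- vs CD69+. It gave -0.16 (interval with the block -0.52 to 0.21, adjusted p = 0.766 with limma), and is named after its values were seen. In this comparison Junb gave -0.35 (SE 0.18, interval with the block -0.60 to -0.10) and was lower in each of the 3 replicates, as 18.4% of all probe sets were. It was called with the block once SP2 replicate 2 was left out (-0.43, adjusted p = 0.0423 with limma), and under no other setting tried. Jund gave 0.30 (interval 0.07 to 0.52) and Jun 0.49 (interval -0.01 to 1.00), and both were higher in each replicate, as 15% of all probe sets were. For Fos the difference was -0.01, with an interval of -0.24 to 0.23.

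Members were also compared with each other over the 12 arrays, after the mean of each replicate number had been taken from the log2 values. These correlations are a description, since arrays share subsets and pools. Fosb went most closely with Jun (r = 0.857) and Fos (r = 0.838), and Fos with Jun at r = 0.690. Ier2 and Batf had r = 0.709 on this scale and r = -0.826 as measured, with Batf high and Ier2 low on replicate 3. Fosl2 and Ier2 had r = -0.962 as measured and 0.166 without the replicate means. Fosl2 had r = -0.174 with Fos and -0.287 with Jun without the replicate means.

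Among 7176 genes with a mean intensity of at least 100, Pim3, a kinase, was the gene most like Jun, with r = 0.963 without the replicate means and 0.972 as measured. For Fosb the most similar was Naa50 (0.931 and 0.840 as measured), and Pim3 came next (0.913 and 0.599). Spry1, an inhibitor of receptor signalling, was most like Atf3 (0.924 and 0.920 as measured), followed by Rnf19b (0.908 and 0.910). For Fos the most similar was Yars, with r = 0.956, but 0.534 as measured. For Batf it was Ifi30 (0.932 and 0.294), for Fosl2 Sgpl1 (0.957 and 0.509), for Junb Fam98a (0.932 and 0.543), for Jund Rbms1 (0.939 and 0.373) and for Ier2 Cr1l (0.901 and -0.210). All of these genes were picked by their r without the replicate means, so a high value on that scale follows from the choice. For these last 6 the r as measured was lower.

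Other genes of the pathway were read in the same comparisons. In SP4 vs SP1, 1.08% of all probe sets were called without the block and 5.16% with it. Of 40 other immediate early genes, 1 rose and 1 fell from SP1 to SP4, and 3 rose and 7 fell with the block. Sgk1, a kinase of the cell survival response, measured 312, 319 and 337 in SP1 and 716, 562 and 553 in SP4, a log2 difference of 0.88 (SE 0.15, adjusted p = 0.0191 with limma). Dusp5, a phosphatase that turns off ERK, measured 2058, 1738 and 2419 in SP1 and 980, 655 and 1245 in SP4, with -1.13 (SE 0.23, adjusted p = 0.0422). The SP1 and SP4 arrays of both genes did not overlap, and the share of all probe sets for which this holds was not counted.

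The 8 others were called with the block alone, and the largest of them in SP4 vs SP1 were Nr4a1 (-1.24, adjusted p = 0.0868 without the block), Nr4a2 (-1.03, adjusted p = 0.976 without it) and Trib1 (-0.89, adjusted p = 0.0926 without it). The remaining 5 were Egr3 and Btg2, which were higher (0.84 and 0.55), and Gadd45a, Per1 and Sik1, which were lower (-0.72, -0.53 and -0.50), and they are named after their values were seen. Nr4a1 encodes NUR77, a nuclear receptor used as a readout of antigen receptor signals. It measured 2466, 2444 and 3688 in SP1 and 1060, 877 and 1784 in SP4. Over the list the median log2 fold change was 0.03, beside -0.01 over all genes, and the 9 genes had a median of 0.15. In CD69- vs CD69+, where 0.588% of all probe sets were called and 3.69% with the block, the list had 1 higher and 1 lower, and 3 and 6 with the block. The one that was higher without the block was Sgk1 (0.70, adjusted p = 0.0146), named after its values were seen, and the one that was lower was Dusp5 (-0.93, adjusted p = 0.0282). With the block alone Nr4a3 (-0.93), Nr4a1 (-0.87) and Nr4a2 (-0.71) were called lower and Pim1, a kinase of cell survival, higher (0.75).

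**Figure D5:**
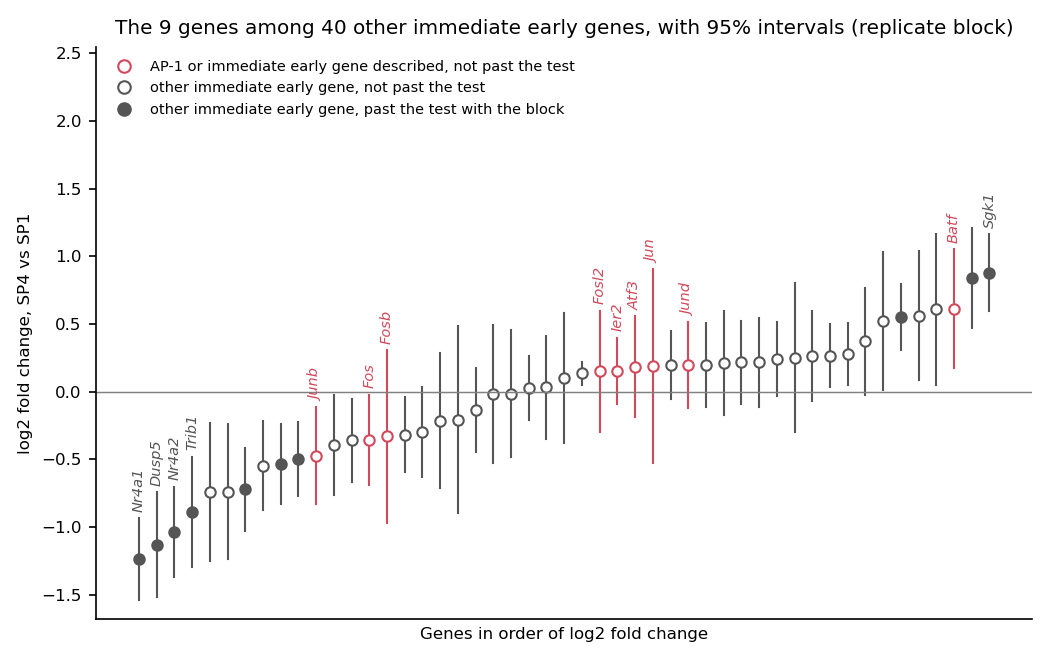
Log2 fold change from SP1 to SP4 for the 9 genes (red) among 40 other immediate early genes (grey), in order, with 95% intervals from the fit with the block. Filled circles passed the test with the block, and the 5 of largest change are named. The 9 genes run from Junb at -0.47 to Batf at 0.61 and all are open circles.

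Of 23 further AP-1 subunits and leucine zipper partners, 1 rose from SP1 to SP4, and 2 rose and 1 fell with the block. Maf, which drives interleukin 4 in T cells, measured 90.4, 80.8 and 150 in SP1 and 405, 448 and 790 in SP4, a log2 difference of 2.17 (SE 0.43, adjusted p = 0.0361 with limma). Bach1, a repressor that competes at related sites, gave -1.57 (adjusted p = 0.534, and 3.68e-05 with the block) and Nfe2l2, an oxidative stress factor, 0.81 (adjusted p = 0.740, and 0.00126 with the block). On replicate 3, 14 of these 23 genes were higher and 1 lower, against 20.3% higher and 17.7% lower over all probe sets.

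Among 10 partner factors of BATF and NFAT, 0 were called in SP4 vs SP1 by limma without the block and 4 rose with it, against 4 at an unadjusted p under 0.05. They were Irf4, the partner of BATF (1.19, adjusted p = 0.0253 with the block), Nfatc2 (1.12, 0.00183), Irf8 (1.01, 0.0209) and Nfatc1 (0.76, 0.00753). Irf4 measured 135, 199 and 345 in SP1 and 304, 335 and 1220 in SP4, and like Batf it was higher on replicate 3, by 1.504 (adjusted p = 0.000106). Of 22 kinases and ternary complex factors upstream of AP-1, 0 were called without the block (1 at an unadjusted p under 0.05) and 1 with it, Sos1 (0.56, adjusted p = 0.0377), which is near the 5.16% of all probe sets.

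Of 20 activation genes of T cells that AP-1 is known to act on, 2 rose and 0 fell from SP1 to SP4, and 6 rose and 2 fell with the block. Il4 measured 17.7, 14.7 and 9.78 in SP1 and 70.6, 237 and 536 in SP4, with a log2 fold change of 2.94 (adjusted p = 0.0220 with limma). Ifng gave 1.52 (adjusted p = 0.0271), and Icos, a costimulatory receptor, 1.10 (adjusted p = 0.363, and 0.00124 with the block). Gzmb (0.94) and Fasl (0.87) were among the others called higher with the block alone, and the pair that fell was Tnfrsf9 (-0.58) and Csf2 (-0.33), the last 2 named after their values were seen. Il4 also stands in the NKT and innate-like list named above. In CD69- vs CD69+ this list had 1 higher and 1 lower, and 4 and 3 with the block. Il4 was higher (2.05, adjusted p = 0.0355 with limma) and Tnfrsf9, a costimulatory receptor of stimulated cells, was lower, with a log2 difference of -1.25 (SE 0.15, adjusted p = 0.00267). With the block alone Ifng (0.77) and Fasl (0.49) were called higher and Tnfrsf4 (-0.68) lower.

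Of 17 heat shock genes and others known to respond to the handling of cells, 0 were called in any of the 7 comparisons of subsets by limma, without or with the block, with at most 1 at an unadjusted p under 0.05. The called share of all probe sets was at most 1.08% without the block and 5.16% with it, so the 0 is near that background. On replicate 3, 8 of the 17 were higher and 2 lower, against 20.3% higher and 17.7% lower over all probe sets. Their part in the replicate 3 levels of the 9 genes was not tested.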

How the data were processed

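Biotin-labelled cRNA of 12 sorted samples, 3 of each of SP1 to SP4, had been hybridised to Affymetrix arrays. The deposited table gives 1 linear probe set intensity per array, to which the authors had already applied a background correction and a normalization across arrays. The study's methods name RMA in R Bioconductor and the processing notes name MAS5, and no version was given in the sources used here. Since these intensities come already summarised, no scan was reprocessed, and spread from the normalization cannot be separated from that of the samples. The number of arrays limits the precision.

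An offset of 16 was added before log2. limma 3.58.1 under R 4.3.3 (lmFit, then eBayes with a trend) fitted a mean for each subset over the 12 arrays and 45037 probe sets. This left 8 residual degrees of freedom, or 6 with the replicate number as a block. Each comparison had its p-values adjusted (Benjamini-Hochberg) across the whole array, and a call is an adjusted p under 0.05 at any fold. Fold changes are on the log2(intensity + 16) scale, which understates those of dim probe sets. Of the probe sets, 34945 name 1 gene in the array's annotation, 932 several and 9160 are unnamed here.

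The replicate numbers were taken to pair the samples, since every pair of arrays of the same number had a positive correlation. Deviations from the subset means correlated between 0.407 and 0.782 among arrays of replicate 1, between 0.279 and 0.650 for replicate 2 and between 0.794 and 0.883 for replicate 3. Arrays of replicates 1 and 2 also correlated with each other, between 0.178 and 0.729, and those of replicate 3 correlated with them between -0.812 and -0.388, so replicate 3 is set apart more than numbers 1 and 2 are from each other. The positive values therefore do not by themselves show a pairing within numbers 1 and 2. The deposited columns of 1 number also carry the values of 1 named array repeat in the study's supplementary lists.

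The 9 genes and the 16 gene lists were chosen with earlier results of these data known. All 9 genes are named. Of a list, at most 5 genes per comparison are named, those of largest absolute log2 fold change among genes called without or with the block, and a gene outside this rule is said to be named after its values were seen. For likeness to a gene, up to 3 genes of mean intensity 100 or more are named. Lists of regulatory T cells (3 of 7 genes higher on replicate 3 and 1 lower), thymic epithelial and stromal cells (0 and 4 of 13), erythroid cells (0 and 1 of 5), sort and lineage genes (1 and 4 of 10) and housekeeping genes (1 and 6 of 10) were also read. Beside these counts, 20.3% of all probe sets were higher and 17.7% lower on replicate 3. Promoters were RefSeq's, build GRCm38.p6. Scripts were tested on simulated data. SAM, the test of the methods, was not run, and its two-class layout was tried with limma.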

Additional observations from a re-analysis of the deposited data

How the results depend on the processing

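The count of 0 called genes held in every comparison under each of these alternatives: the replicate block (smallest adjusted p = 0.0933, for Jun in SP4 vs SP2), offsets of 1 and 64, only probe sets of mean intensity 50 or more, arrays shifted to a common median, quantile normalization, a fit without trend or with only the arrays compared, the mean of all probe sets of a gene, a fold over 2, and leaving out each array. Of 1253 values of single genes under these, 88 had the other sign, all of them uncalled. The filter on mean intensity leaves out Atf3, which has no value there.

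Alternatives chosen after seeing the data put the block together with 1 array left out, or left out the 4 arrays of replicate 3. With the block and 1 array left out, the count of called genes ranged from 0 to 1 in SP2 vs SP1, SP4 vs SP1, SP4 vs SP2 and CD69- vs CD69+, from 0 to 2 in the F test, and stayed at 0 in SP3 vs SP1, SP3 vs SP2 and SP4 vs SP3. Without SP1 replicate 3, Fosb was called in SP2 vs SP1 (-1.44, adjusted p = 0.0348 with limma) and SP4 vs SP1 (-0.84, adjusted p = 0.0321), and Jun in SP4 vs SP2 (1.18, adjusted p = 0.0388, and 0.0431 without SP1 replicate 2). Junb was called in CD69- vs CD69+ without SP2 replicate 2 (-0.43, adjusted p = 0.0423) and Batf in SP4 vs SP1 without SP4 replicate 1 (0.87, adjusted p = 0.0223). With the block and without all arrays of replicate 3, 1 gene was called in the F test and 0 in the pairwise comparisons. The causes were not tested.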
